A study of Homo sapiens with 12 samples.

Results

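Entinostat, which inhibits class I histone deacetylases, was present in both groups compared, and the drugs that differed were dabrafenib, an inhibitor of mutant BRAF, and trametinib, an inhibitor of the kinases MEK1 and MEK2. The groups were 3 arrays of A2058 cells given entinostat alone (E) and 3 arrays of A2058 cells given entinostat, dabrafenib and trametinib together (DTE), chosen by their titles from the 12 arrays of the series. A2058 is an established human melanoma line with an activating BRAF mutation. Cells were harvested 24 h after treatment with entinostat at 1 µM, dabrafenib at 100 nM and trametinib at 10 nM, so each drug was seen at 1 dose, at 1 time and in 1 cell line. The other 6 arrays were 3 of vehicle (DMSO) and 3 of dabrafenib plus trametinib without entinostat (DT). All 12 arrays came from the same line in the same medium, and they enter as the shared estimate of the spread and as the same drug step without entinostat. The titles call the arrays of a group biological replicates and the series' design text calls them technical ones, so a p-value here covers only array-to-array spread, possibly technical, within these cultures. The measurement was total RNA on a whole-transcript Affymetrix array, from which 14580 named genes were tested out of 29396 probe sets.

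In melanoma with mutant BRAF, signal runs from BRAF through MEK1 and MEK2 to the kinases ERK1 and ERK2, which switch on early transcription factors (the ETS members ETV1, ETV4 and ETV5, the AP-1 member FOSL1, MYC), cyclin D1 and secreted factors. The same signal induces its own brakes, the DUSP phosphatases and the Sprouty proteins, whose transcripts are a common readout of ERK activity. The lineage factor MITF, which drives pigment genes, is held low by strong ERK signal in many melanoma cells. Histone deacetylase inhibitors raise histone acetylation and turn on many silent genes.

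Adding dabrafenib and trametinib to entinostat lowered most ERK brakes, the ETS factors ETV1, ETV4 and ETV5, and the AP-1 member FOSL1. Several inflammatory cytokines and matrix proteases fell too. DUSP6 was 41-fold, ETV4 16.6-fold, CXCL8 13.5-fold and MMP1 4.86-fold lower in DTE than in E. The AP-1 members JUN, JUND and FOSL2 were not called as deposited. Genes of ribosome production and cell cycle entry fell by smaller amounts, except the cyclin D1 gene CCND1 (-2.63 in log2). Pigment cell genes led by MITF and TYRP1, genes of sterol synthesis, the pro-death genes BMF and BCL2L11, and the stem cell factor SOX2 rose, and A2M, a secreted protease inhibitor, rose most of all, 4.48-fold. Other pro-death genes fell: PMAIP1 (-1.58 in log2), and BAX, BAK1, BBC3, BID and BOK, which were not called after quantile normalization. Values below are log2 of the deposited array value unless a fold is named, and a difference is DTE minus E on that scale with its standard error (SE) from limma over the 12 arrays.

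At an adjusted p under 0.05 (limma, Benjamini-Hochberg over all 14580 genes), 303 genes were higher in DTE (2.08% of those tested) and 3271 were lower (22.4%). Of these, 43 were at least 2-fold higher and 255 at least 2-fold lower, and 2 were at least 4-fold higher against 38 at least 4-fold lower. The number lower was 2132 without replicate 1 of DTE. All 3 DTE arrays lay above all 3 E arrays for 573 genes (3.93%) and below them for 5194 (35.6%). The excess of lower genes came with a shift of the whole arrays: the median log2 value was 4.88 ± 0.017 (SD, n = 3) in E and 4.66 ± 0.045 (SD, n = 3) in DTE, a difference of -0.22 (two-sided exact permutation test, p = 0.1, the smallest this design allows). The median difference over all genes was -0.19, and it grew from -0.01 in the dimmest of 10 bins of genes to -0.31 in bin 8 and -0.28 in the brightest. Quantile normalization, which gives every array the same distribution, brought the median to 0.0010, and then 1019 genes were higher (6.99%) and 851 lower (5.84%). All 851 were among the 3271, 298 of the 303 higher genes kept their call, and none changed direction. After median centring the split was 978 higher and 1007 lower. Whether less RNA was made per cell, or the arrays differ in scale, cannot be told from values processed this way and was not tested. The counts and medians of the lists below are therefore given on both scales. List counts stand beside 2.08% of all genes higher and 22.4% lower as deposited, and 6.99% higher and 5.84% lower after quantile normalization. Lists and members were chosen with earlier results of these data known, so their counts are descriptions and not tests.

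**Figure D1:**
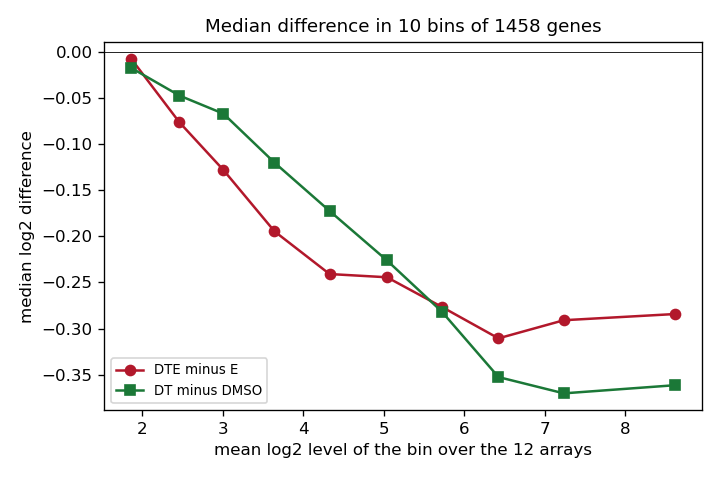
Median log2 difference (vertical axis) in 10 bins of 1458 genes ordered by mean log2 level over the 12 arrays (horizontal axis), for DTE minus E (circles) and DT minus DMSO (squares). The median lies near 0 in the dimmest bin and between -0.24 and -0.31 in the brighter bins of DTE minus E.

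Markers of the labelled cell type had signal, but so did markers of other cell types, so these values do not by themselves identify the cells. The blood cell marker CD68 averaged 9.36 in E, beside 8.91 for the melanocyte marker PMEL. Of 8 melanocyte lineage markers 7 were measured (MITF, SOX10, PAX3, TYR, TYRP1, PMEL and MLANA), and their summed linear value ran from 1389 to 1490 in the E arrays and from 1718 to 1864 in the DTE arrays. Markers of other cells also moved: the summed value of 9 of 12 epithelial markers was 224 to 263 in E and 161 to 174 in DTE, that of 5 of 10 fibroblast markers 314 to 371 in E and 452 to 616 in DTE, and that of 3 of 12 blood cell markers 606 to 722 in E and 357 to 423 in DTE. LUM, which encodes the matrix protein lumican, made up the called rise among the fibroblast markers (0.70) and THY1 the fall (-0.60). CD68 (-0.80) and LYZ (-0.49) were the blood cell markers that fell, CLDN4 (-1.12), KRT18 (-0.91) and CLDN3 (-0.50) the epithelial ones, and ESRP1 rose (0.33) from a level of 2.19 that lies below the lower quartile of genes in E (3.12). CD14, DPT and DCN were below that quartile in E. THY1, LYZ and CLDN3 were not called after quantile normalization. The median difference was -0.38 over the epithelial, 0.22 over the fibroblast and -0.49 over the blood cell markers, and -0.20, 0.29 and -0.29 after quantile normalization. Leaving out 1 array ended the calls of ESRP1 in 10 of 12 refits (adjusted p up to 0.141, without E replicate 3), CLDN3 in 6 of 12 refits (adjusted p up to 0.188, without E replicate 2), LYZ in 4 of 12 refits (adjusted p up to 0.161, without E replicate 3) and THY1 in 1 of 12 refits (adjusted p up to 0.0678, without DTE replicate 1). All arrays were labelled as the A2058 line, and whether other cells had any part in the results below was not tested.

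The ERK brakes fell as a group. Of 11 measured feedback inhibitors of the pathway 10 fell and none rose, against 22.4% and 2.08% of all genes, with a median difference of -1.63 beside -0.19 over all genes. After quantile normalization 8 fell and the median was -1.35. DUSP6, the phosphatase that removes the activating phosphates of ERK in the cytoplasm, stood at 9.19, 9.12 and 9.41 in the E arrays and at 4.25, 3.33 and 4.07 in the DTE arrays. Every DTE array lay more than 4 log2 units below every E array, and the fall was 5.36 ± 0.19 (SE, adjusted p = 8.15e-13). SPRY4, a Sprouty protein that damps receptor signalling to RAS, measured 7.72, 7.36 and 7.41 in E and 3.62, 3.90 and 3.66 in DTE, a fall of 3.77 ± 0.17 (SE, adjusted p = 2.45e-11). The nuclear phosphatase DUSP4 measured 7.97, 8.06 and 7.90 in E and 4.23, 4.61 and 4.70 in DTE. Its fall was 3.46 ± 0.14 (SE, adjusted p = 4.7e-12), and the groups did not overlap for any of these 3 genes. SPRY2, related to SPRY4, fell by 3.38 ± 0.11 (SE), DUSP5, another nuclear ERK phosphatase, by 2.17 ± 0.18, and ERRFI1, which inhibits the EGF receptor, by 1.63 ± 0.14. DUSP1, DUSP7, DUSP2 and DUSP10 fell by 1.29, 1.00, 0.52 and 0.48; DUSP2 and DUSP10 were not called after quantile normalization. DUSP8 alone was not called (0.19, adjusted p = 0.392).

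**Figure D2:**
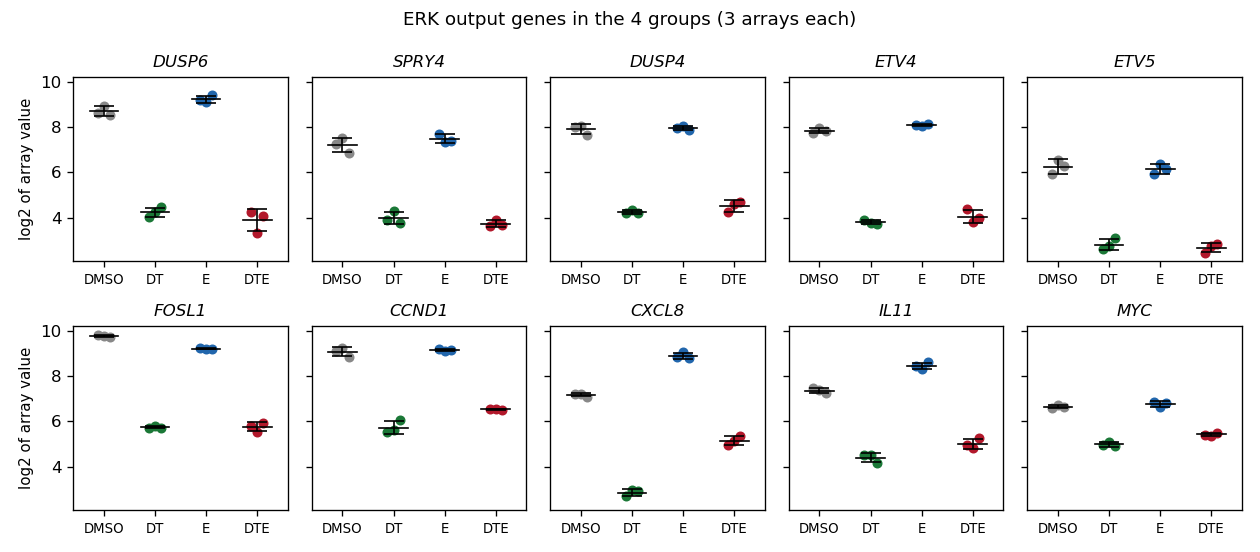
Log2 array value (vertical axis) of 10 ERK output genes in the 4 groups, 1 point per array, with the mean (long bar) and SD (capped bar) of the 3 arrays. The DTE and DT arrays lie below the E and DMSO arrays for each gene, with DUSP6 at 9.24 on average in E and 3.88 in DTE.

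Transcription factors downstream of ERK followed. Of 23 measured, 16 fell and 1 rose, with a median of -0.66; after quantile normalization 12 fell, 3 rose and the median was -0.37. ETV4, an ETS factor, had values of 8.10, 8.07 and 8.13 in E and 4.37, 3.80 and 3.97 in DTE. The groups were wide apart, with a fall of 4.05 ± 0.14 (SE, adjusted p = 6.64e-13). ETV5, its close relative, had 5.95, 6.37 and 6.15 in E and 2.44, 2.76 and 2.83 in DTE, and the DTE values lay below the lower quartile of genes in that group (2.99), so the fall of 3.48 ± 0.17 (SE) ends at a level not shown to be above background. The third of the subfamily, ETV1, fell by 2.29 ± 0.14. FOSL1, the FOS-family partner in AP-1 dimers most tied to sustained ERK signal, measured 9.23, 9.21 and 9.22 in E and 5.81, 5.56 and 5.95 in DTE, a fall of 3.45 ± 0.12 (SE, adjusted p = 6.64e-13) with no overlap. MYC, the growth factor-driven regulator of biosynthesis, went from 6.87, 6.64 and 6.83 in E to 5.41, 5.38 and 5.50 in DTE, a fall of 1.35 ± 0.11 (SE, adjusted p = 1.55e-07). Immediate early genes fell too: EGR1 by 1.67, IER2 by 1.36, MAFF by 1.23, EGR3 by 1.07, JUNB by 0.86 and FOS by 0.66. KLF4, KLF2, FOSB and SRF were called lower as deposited (-0.60, -0.49, -0.47 and -0.43) and not after quantile normalization. ATF3, a stress-induced factor, was the riser as deposited, from 4.83, 4.27 and 4.52 in E to 5.11, 5.20 and 5.32 in DTE (0.67 ± 0.17, SE, adjusted p = 0.00792). The AP-1 members JUN, JUND and FOSL2 were not called as deposited. After quantile normalization JUN and JUND were called higher beside ATF3. With 1 array left out, the calls did not hold for KLF4 in 2 of 12 refits (adjusted p up to 0.0729, without DTE replicate 1), KLF2 in 3 of 12 refits (adjusted p up to 0.154, without DTE replicate 1) and FOSB in 3 of 12 refits (adjusted p up to 0.141, without E replicate 3).

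Other targets of the pathway were lowered strongly. Of 11 measured ERK output genes 10 fell and none rose on either scale, with a median of -1.86 (-1.62 after quantile normalization). These members were chosen with earlier results of these data known, so the count describes the list and is no test of the pathway. CEMIP, a hyaluronan-degrading protein tied to invasion, measured 8.60, 8.52 and 8.45 in E and 4.10, 4.19 and 3.99 in DTE, a fall of 4.43 ± 0.12 (SE, adjusted p = 7.51e-14). GDF15, a secreted stress cytokine of the TGF-beta family, measured 9.42, 9.54 and 9.44 in E and 5.64, 5.69 and 5.77 in DTE, a fall of 3.77 ± 0.15. Neither gene's groups overlapped. CCND1, which encodes cyclin D1, the partner of CDK4 and CDK6 at cell cycle entry, fell by 2.63 ± 0.14 (SE, adjusted p = 4.04e-10), from 9.19, 9.11 and 9.18 in E to 6.57, 6.54 and 6.50 in DTE. LIF, a cytokine of the IL6 family, fell by 3.15, the ephrin receptor gene EPHA2 by 2.07, the chromatin protein gene HMGA2 by 1.86 and the early response gene IER3 by 1.58. UPP1 was not called (-0.27). Among the 14 largest falls, some belong to none of the lists: SH2D2A, an adaptor best known from T cells, fell by 3.97 ± 0.16 (SE), and STC1, a secreted glycoprotein, by 3.16 ± 0.14.

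Secreted inflammatory factors fell with them. Of 21 measured cytokine and chemokine genes 10 fell and none rose (median -0.42). After quantile normalization 8 fell (median -0.21). The share of all genes called lower was 22.4% as deposited and 5.84% after quantile normalization. CXCL8, the neutrophil chemokine interleukin 8, measured 8.84, 9.06 and 8.82 in E and 4.96, 5.12 and 5.37 in DTE. All 3 DTE arrays were lower by more than 3 log2 units, and the fall was 3.76 ± 0.13 (SE, adjusted p = 7.01e-13). IL11, an IL6-family cytokine, measured 8.45, 8.34 and 8.62 in E and 4.95, 4.84 and 5.27 in DTE, a fall of 3.45 ± 0.14 (SE, adjusted p = 4.7e-12). IL24, an IL10-family cytokine made by melanocytic cells, fell by 2.21 ± 0.18, the chemokine gene CCL20 by 1.42, the EGF receptor ligand gene HBEGF by 1.16, the angiogenic factor gene VEGFA by 1.12 and CCL5 by 1.08. CXCL2 and CCL2 were called lower as deposited (-0.67 and -0.52) and not after quantile normalization. The call did not survive the loss of 1 array for CCL2 in 6 of 12 refits (adjusted p up to 0.148, without DTE replicate 2). PTGS2, the inducible prostaglandin synthase, and ICAM1, an adhesion molecule for leukocytes, were looked up after their values were seen and fell by 2.86 ± 0.15 and 2.11 ± 0.12. In the list of matrix proteins, integrins and proteases 7 of 9 measured members fell and none rose (median -0.99, -0.71 after quantile normalization, 5 falling). The collagenase gene MMP1 measured 11.20, 11.34 and 11.30 in E and 9.02, 8.90 and 9.07 in DTE, a fall of 2.28 ± 0.11 (SE, adjusted p = 4.53e-11) with no overlap. The membrane protease gene MMP14 fell by 1.02, the protease inhibitor genes TIMP1 and TIMP3 by 1.10 and 0.99, and tenascin C (TNC) by 1.18. THBS1 (-0.10) and TIMP2 (-0.14) were not called.

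AP-1, the dimer that FOSL1 forms with JUN proteins, is known to bind the letters TGAGTCA. RefSeq promoter windows (GRCh38.p14, 250 bases before to 50 after the start of a gene) were given for 10560 of the 14580 genes. The motif, searched on both strands, stood in 402 of the 10560 windows (3.81%). It stood in 25 of 192 windows of genes at least 2-fold lower in DTE (13.0%) and in 1 of 27 windows of genes at least 2-fold higher (3.7%). Over all genes called lower it stood in 102 of 2551 (4.0%), and over those called lower after quantile normalization in 44 of 648 (6.79%). The 25 genes include CXCL8, IL11, PAEP (-2.61), GPR3 (-2.55), UCN2 (-2.43), LAT (-2.00), EMP1 (-1.86) and LPXN (-1.70). The windows of the 3 that fell most are shown because each holds 1 motif, in capitals; it starts 137 bases before the transcript start in CXCL8, 96 in IL11 and 95 in PAEP. A match is a description of these letters and not a bound site. The ETS letters CCGGAAGT stood in 699 of 10560 windows (6.62%) and in 0 of the 192. Over all genes called lower they stood in 219 of 2551 (8.58%), and over those called higher in 5 of 229 (2.18%). After quantile normalization they stood in 31 of 648 called lower (4.78%) and in 35 of 811 called higher (4.32%).
CXCL8 (chr4:73740319-73740618, plus strand): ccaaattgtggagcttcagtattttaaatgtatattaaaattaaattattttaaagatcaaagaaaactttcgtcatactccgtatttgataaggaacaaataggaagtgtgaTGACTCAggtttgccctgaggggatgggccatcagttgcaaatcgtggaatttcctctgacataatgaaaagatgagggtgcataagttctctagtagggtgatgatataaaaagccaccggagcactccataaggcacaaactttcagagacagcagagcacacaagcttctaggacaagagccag
IL11 (chr19:55370414-55370713, minus strand): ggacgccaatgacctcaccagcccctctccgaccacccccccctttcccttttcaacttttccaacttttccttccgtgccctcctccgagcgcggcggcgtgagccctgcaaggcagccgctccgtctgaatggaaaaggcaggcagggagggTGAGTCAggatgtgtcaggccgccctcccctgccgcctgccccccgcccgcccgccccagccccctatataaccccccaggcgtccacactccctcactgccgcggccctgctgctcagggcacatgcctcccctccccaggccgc
PAEP (chr9:135561506-135561805, plus strand): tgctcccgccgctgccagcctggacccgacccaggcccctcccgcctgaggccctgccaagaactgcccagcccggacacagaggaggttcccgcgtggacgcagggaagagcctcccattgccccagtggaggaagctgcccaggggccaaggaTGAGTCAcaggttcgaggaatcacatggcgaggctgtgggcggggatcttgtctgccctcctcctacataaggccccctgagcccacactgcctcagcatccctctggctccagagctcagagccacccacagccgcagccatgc

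The signal at 2 neighbouring microRNA loci fell in parallel. MIR221 and MIR222 lie within 968 bases on the minus strand of the X chromosome (chrX:45746157-45747124, GRCh38.p14), and their main products are known to share targets because they share a seed, the bases 2 to 8 that pair with a target. The mature sequences from RefSeq are shown with the seed in capitals; miR-221-3p and miR-222-3p carry the same seed, GCUACAU.
hsa-miR-221-3p: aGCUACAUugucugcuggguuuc
hsa-miR-222-3p: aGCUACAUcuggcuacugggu
hsa-miR-222-5p: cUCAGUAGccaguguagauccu

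The probe sets of these loci read RNA of the precursor region, not the mature products. MIR222 measured 5.77, 5.42 and 5.35 in the E arrays and 3.44, 3.39 and 3.74 in the DTE arrays, a fall of 1.99 ± 0.19 (SE, adjusted p = 5.08e-07). MIR221 measured 5.55, 5.24 and 5.23 in E and 3.42, 3.22 and 3.56 in DTE, a fall of 1.94 ± 0.14 (SE, adjusted p = 1.37e-08). The groups did not overlap for either locus, and both fell after quantile normalization (-1.77 and -1.72). Of 1018 microRNA loci measured, 15 were called higher and 105 lower, 5 of them at least 2-fold lower, and their median difference was -0.0747. Over all 14580 genes 303 were higher and 3271 lower, 255 of the latter at least 2-fold. After quantile normalization 15 of the microRNA loci were higher and 23 lower. KIT, the stem cell factor receptor and a textbook target of this seed, measured 4.79, 4.46 and 4.42 in E and 5.68, 5.74 and 5.78 in DTE, a rise of 1.18 ± 0.13 (SE, adjusted p = 3.05e-06). It is 1 gene picked from many targets and also belongs to the list of melanocyte differentiation. The targets of this seed were not examined as a set, and whether the microRNAs had any part in its rise was not tested.

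Components of the cascade itself had mixed calls. Of 17 measured, 5 fell (29.4%, beside 22.4% of all genes) and 1 rose. The median of -0.20 was close to the -0.19 of all genes. After quantile normalization 3 fell and 3 rose, and the median was 0.09. MAP2K1, which encodes MEK1, a target of trametinib, fell by 0.89 ± 0.12 (SE, adjusted p = 3.24e-05), while MAP2K2, for MEK2, was not called (-0.23, 95% interval -0.69 to 0.23). RASA2, a GTPase-activating protein for RAS, fell by 0.78 and the adaptor SHC1 by 0.68. GRB2 (-0.51) and ARAF (-0.47) were called lower as deposited and not after quantile normalization. RASGRP3, an exchange factor that activates RAS, rose by 0.47 from a level of 2.99 in E, below the lower quartile. Among 22 receptor tyrosine kinases 3 rose and 8 fell (median -0.21). After quantile normalization 4 rose and 6 fell (median -0.01). Of all genes 2.08% were called higher and 22.4% lower as deposited, and 6.99% and 5.84% after quantile normalization. The neuregulin receptor gene ERBB4 rose by 1.09 ± 0.18 (SE) beside KIT, and FGFR2 by 0.57 from 3.02. The falls were led by EPHA2 and the VEGF receptor genes FLT1 (-1.79) and KDR (-1.18), followed by FGFR1 (-0.83), EPHA4 (-0.78) and ROR1 (-0.72). AXL (-0.64) and MET (-0.36), kinases tied to drug tolerance, were called lower as deposited and not after quantile normalization (-0.40 and -0.06). Refits without 1 array lost the calls of ARAF in 1 of 12 refits (adjusted p up to 0.055, without E replicate 1), RASGRP3 in 2 of 12 refits (adjusted p up to 0.0554, without E replicate 3), FGFR2 in 1 of 12 refits (adjusted p up to 0.064, without E replicate 3) and MET in 10 of 12 refits (adjusted p up to 0.199, without DTE replicate 1).

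Pigment cell genes rose. Of 16 measured genes of melanocyte differentiation 8 rose and 2 fell, with a median of 0.27 beside -0.19 over all genes; after quantile normalization 11 rose, 1 fell and the median was 0.58. MITF, the lineage's master regulator, measured 5.68, 5.66 and 5.76 in E and 6.83, 6.97 and 7.27 in DTE. All DTE arrays were above all E arrays, and the rise was 1.32 ± 0.15 (SE, adjusted p = 5.45e-06). TYRP1, an enzyme of melanin synthesis, measured 6.11, 6.21 and 6.10 in E and 7.49, 7.34 and 7.89 in DTE, a rise of 1.43 ± 0.14 (SE, adjusted p = 7.53e-07), also without overlap. OCA2, a melanosome ion transporter gene, rose by 1.14, the melanosome antigen gene MLANA by 0.73, the carbonic anhydrase gene CA14 by 0.53, GPNMB by 0.48 and PMEL, the fibril protein of melanosomes, by 0.34. Leaving out 1 array ended the calls of PMEL in 6 of 12 refits (adjusted p up to 0.159, without E replicate 2), GPNMB in 3 of 12 refits (adjusted p up to 0.0761, without E replicate 2) and CA14 in 1 of 12 refits (adjusted p up to 0.0827, without E replicate 2). Tyrosinase itself (TYR) was not called as deposited (0.21, adjusted p = 0.257) and was called higher after quantile normalization (0.51). SOX10, the neural crest factor upstream of MITF, was not called on either scale (-0.23 and 0.06). IRF4, a MITF partner in pigment cells looked up after its value was seen, rose by 1.10 ± 0.15 (SE).

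BCL2A1 moved against its list. This anti-death BCL2 relative is a known MITF target in melanoma. It measured 8.03, 8.39 and 8.24 in E and 6.54, 6.54 and 6.96 in DTE, a fall of 1.54 ± 0.14 (SE, adjusted p = 4.09e-07) with no overlap, while TYRP1 rose. The promoter windows of both genes hold 1 copy of the M-box letters TCATGTG, to which MITF is known to bind, and are shown for that reason with the motif in capitals. It starts 145 bases before the transcript start in TYRP1 and 26 before it in BCL2A1. The letters, on either strand, stood in 216 of 10560 windows (2.05%), in 1 of 27 windows of genes at least 2-fold higher (3.7%) and in 4 of 192 of those at least 2-fold lower (2.08%). GPR143, the other pigment gene lower in DTE, fell by 0.42 and was not called after quantile normalization. With 1 array left out, the call did not hold for GPR143 in 4 of 12 refits (adjusted p up to 0.0936, without E replicate 1).
TYRP1 (chr9:12693135-12693434, plus strand): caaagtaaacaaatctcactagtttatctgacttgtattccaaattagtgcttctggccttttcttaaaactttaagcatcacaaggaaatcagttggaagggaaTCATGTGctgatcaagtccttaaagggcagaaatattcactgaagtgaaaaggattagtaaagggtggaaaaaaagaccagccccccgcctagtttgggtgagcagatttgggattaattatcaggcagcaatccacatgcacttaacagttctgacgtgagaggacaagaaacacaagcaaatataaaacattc
BCL2A1 (chr15:79971147-79971446, minus strand): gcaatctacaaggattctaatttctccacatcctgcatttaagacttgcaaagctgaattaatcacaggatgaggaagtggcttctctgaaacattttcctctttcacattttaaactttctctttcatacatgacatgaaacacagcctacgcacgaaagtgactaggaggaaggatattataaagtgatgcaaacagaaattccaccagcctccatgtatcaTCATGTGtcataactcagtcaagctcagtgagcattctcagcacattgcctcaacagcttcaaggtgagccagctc

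Genes of the dedifferentiated melanoma state mostly fell: 9 of 14 measured fell and 1 rose, with a median of -0.59; after quantile normalization 6 fell and the median was -0.33. SOX9, a neural crest factor, fell by 1.12 ± 0.14 (SE), the intermediate filament gene NES by 0.78, the neurotrophin receptor gene NGFR by 0.77 and ZEB1, a repressor of epithelial genes, by 0.75. LOXL2 and FN1 were called lower as deposited (-0.71 and -0.38) and not after quantile normalization. The call did not survive the loss of 1 array for FN1 in 4 of 12 refits (adjusted p up to 0.0746, without E replicate 3). SOX2, a stem cell factor, was the exception. It measured 5.92, 6.45 and 6.28 in E and 7.68, 7.70 and 7.87 in DTE, a rise of 1.53 ± 0.13 (SE, adjusted p = 2.5e-07), and the groups did not overlap. SNAI2 (1.08), SOX4 (1.13) and ZEB2 (0.79), neural crest and melanocyte factors looked up after their values were seen, also rose. Of 11 measured YAP targets 1 rose and 2 fell (18.2%, beside 22.4% of all genes), with a median of -0.03. After quantile normalization 4 rose and 2 fell (median 0.24). AJUBA, a LIM protein of cell junctions, rose by 0.77, and AMOTL1 (-1.10) and the YAP partner TEAD4 (-0.74) fell. The canonical target CCN2 was not called (-0.03).

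The largest rises lay mostly outside these lists. A2M measured 6.02, 5.94 and 6.02 in E and 7.94, 8.32 and 8.20 in DTE, a rise of 2.16 ± 0.14 (SE, adjusted p = 3.28e-09). PI15, a secreted peptidase inhibitor, measured 5.22, 4.72 and 5.44 in E and 7.06, 6.92 and 7.66 in DTE, a rise of 2.08 ± 0.19 (SE, adjusted p = 4.79e-07). In both, each DTE array was above each E array by more than 1 log2 unit. EDIL3, an integrin ligand, rose by 1.53, the ubiquitin ligase gene PDZRN3 by 1.50, the chloride channel gene BEST1, known from retinal pigment epithelium, by 1.46 and the giant cadherin gene FAT4 by 1.40. The kinase gene STK32A rose by 1.63, ASPA, an aspartate-metabolising enzyme of myelin-forming cells, by 1.55, the myelin protein gene PMP2 by 1.70 and AMBN, an enamel matrix gene, by 1.60. NPY6R and the non-coding RNA BANCR rose by 1.89 and 1.70 from levels of 2.04 and 2.79 in E, which lie below the lower quartile of genes in that group.

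Death regulators of the BCL2 family split by direction. Of 16 measured 2 rose and 10 fell (median -0.48). After quantile normalization 3 rose and 4 fell (median -0.18). Over all genes 2.08% were called higher and 22.4% lower as deposited, and 6.99% and 5.84% after quantile normalization. The risers as deposited were pro-death proteins of the BH3-only class. BMF measured 5.05, 4.95 and 4.63 in E and 5.80, 5.74 and 5.76 in DTE, a rise of 0.89 ± 0.13 (SE, adjusted p = 7.41e-05). BCL2L11, which encodes BIM, measured 5.70, 5.92 and 5.64 in E and 6.22, 6.51 and 6.66 in DTE, a rise of 0.71 ± 0.16 (SE, adjusted p = 0.00467), and neither gene's groups overlapped. The anti-death genes MCL1 (-1.31 ± 0.12, SE) and BCL2 (-0.82) fell beside BCL2A1, and so did the pro-death PMAIP1, for NOXA (-1.58). BAX (-0.65), BAK1 (-0.65), BCL2L1 (-0.54), BBC3 (-0.50), BID (-0.45) and BOK (-0.35) were called lower as deposited and not after quantile normalization. Refits without 1 array lost the calls of BBC3 in 4 of 12 refits (adjusted p up to 0.0919, without DTE replicate 3), BID in 3 of 12 refits (adjusted p up to 0.089, without E replicate 2) and BOK in 5 of 12 refits (adjusted p up to 0.11, without E replicate 3). Of 8 measured p53 targets 1 rose and 4 fell (median -0.34), and after quantile normalization 2 rose and 3 fell (median -0.08). As deposited, SESN1, a stress-induced inhibitor of mTORC1, rose by 0.53 and AEN, a nuclease, fell by 1.15 beside GDF15, PMAIP1 and BBC3. TP53INP1 (1.35), KLHL24 (1.16) and SESN3 (1.07) were looked up after their values were seen and rose.

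Cell cycle genes were called lower in part. Of 17 measured regulators of the G1 phase 11 fell and none rose (median -0.41), and 5 fell after quantile normalization (median -0.19). Beside CCND1, the falls on both scales were E2F3 (-0.76), E2F7 (-0.73), CDK6 (-0.73) and the cyclin E gene CCNE1 (-0.66). Of 19 DNA replication genes 11 fell and none rose (median -0.45); 4 fell after quantile normalization (median -0.14), namely the origin licensing factor CDT1 (-0.94 ± 0.15, SE), the ribonucleotide reductase subunit RRM2 (-0.74), GINS4 (-0.73) and MCM7 (-0.64). Of 24 mitosis genes 7 fell as deposited, led by CDC20 (-0.47), AURKA (-0.43) and PLK1 (-0.39), and none of the 24 fell after quantile normalization, where 2 rose, KIF20A (0.62) and CCNA2 (0.29). The median changed sign with the scale (-0.25 and 0.04). Of 20 genes of homologous recombination 6 fell and none rose (median -0.22), and after quantile normalization 2 fell and 2 rose (median 0.07). Those that fell were the nuclease subunits MUS81 (-0.67) and EME1 (-0.60), and those that rose, on that scale only, included the nuclease gene GEN1 (0.49). Of 15 DNA damage checkpoint genes 5 fell and none rose (median -0.30). After quantile normalization 1 fell, the phosphatase gene CDC25A (-0.83 as deposited), and 1 rose, the clamp gene HUS1 (0.33), with a median of 0.0017. As deposited, 22.4% of all genes were called lower, and the median difference of all genes was -0.19. The share lower was 64.7% of G1, 57.9% of replication, 29.2% of mitosis, 30.0% of recombination and 33.3% of checkpoint genes. Leaving out 1 array ended the calls of AURKA in 4 of 12 refits (adjusted p up to 0.185, without DTE replicate 1) and PLK1 in 4 of 12 refits (adjusted p up to 0.122, without E replicate 1).

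Among biosynthesis genes, those of ribosome production fell as a list. All 16 measured genes of ribosome biogenesis fell, with a median of -0.58 beside -0.19 over all genes; 7 fell after quantile normalization (median -0.29). BOP1, needed to mature the large subunit's RNA, fell by 1.10 ± 0.12 (SE, adjusted p = 5.53e-06), the nucleolar protein gene LYAR by 1.01, RRP12 by 0.79, WDR43 by 0.77 and the helicase gene DDX21 by 0.60. Fibrillarin (FBL, -0.53) and nucleolin (NCL, -0.38) were called lower as deposited and not after quantile normalization. With 1 array left out, the call did not hold for NCL in 5 of 12 refits (adjusted p up to 0.106, without DTE replicate 1). Of 22 genes of the amino acid response and tRNA charging 11 fell and none rose (median -0.33); after quantile normalization 2 fell (median -0.03), TRIB3, a pseudokinase of the stress response (-0.86), and CARS1 (-0.61). Of 8 glycolysis genes 5 fell and none rose (median -0.44). After quantile normalization 2 fell (median -0.13), the hexokinase genes HK2 (-0.73 as deposited) and HK1 (-0.70). Of 10 genes of oxidative metabolism 2 fell as deposited (20%, beside 22.4% of all genes), ESRRA (-0.66) and UQCRC1 (-0.54). None of the 10 was called after quantile normalization. Their median was -0.19 as deposited and 0.10 after quantile normalization.

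Sterol synthesis went the other way. Of 16 measured genes 4 rose and 1 fell, with a median of 0.28. After quantile normalization 13 rose, none fell and the median was 0.60. The share of all genes called higher was 2.08% as deposited and 6.99% after quantile normalization. HMGCS1, which makes the precursor of mevalonate, measured 6.28, 6.36 and 6.53 in E and 7.36, 7.43 and 7.59 in DTE, a rise of 1.07 ± 0.13 (SE, adjusted p = 1.38e-05) with no overlap. INSIG1, the sterol-sensing brake on SREBP, rose by 0.88, MSMO1 by 0.54 and IDI1 by 0.48. PMVK was called lower as deposited (-0.36) and not after quantile normalization. The calls did not survive the loss of 1 array for PMVK in 9 of 12 refits (adjusted p up to 0.166, without E replicate 3) and IDI1 in 3 of 12 refits (adjusted p up to 0.115, without DTE replicate 3). Of 12 genes of fatty acid synthesis 2 rose and none fell (median -0.06): SCD, the desaturase that makes monounsaturated fat (0.72 ± 0.12, SE), and LPIN1, a phosphatidate phosphatase (0.74). After quantile normalization 3 rose, these and the desaturase gene FADS1 (0.40), none fell and the median was 0.17. FASN was not called as deposited (-0.17). Of 21 lysosome and autophagy genes 5 fell (23.8%, beside 22.4% of all genes) and none rose (median -0.13). After quantile normalization 3 rose and 2 fell (median 0.18). TPCN1, a lysosomal cation channel gene (-0.91), and ATG16L1 (-0.82) fell on both scales, and the MITF relative TFE3 was called lower only as deposited (-0.50).

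**Figure D3:**
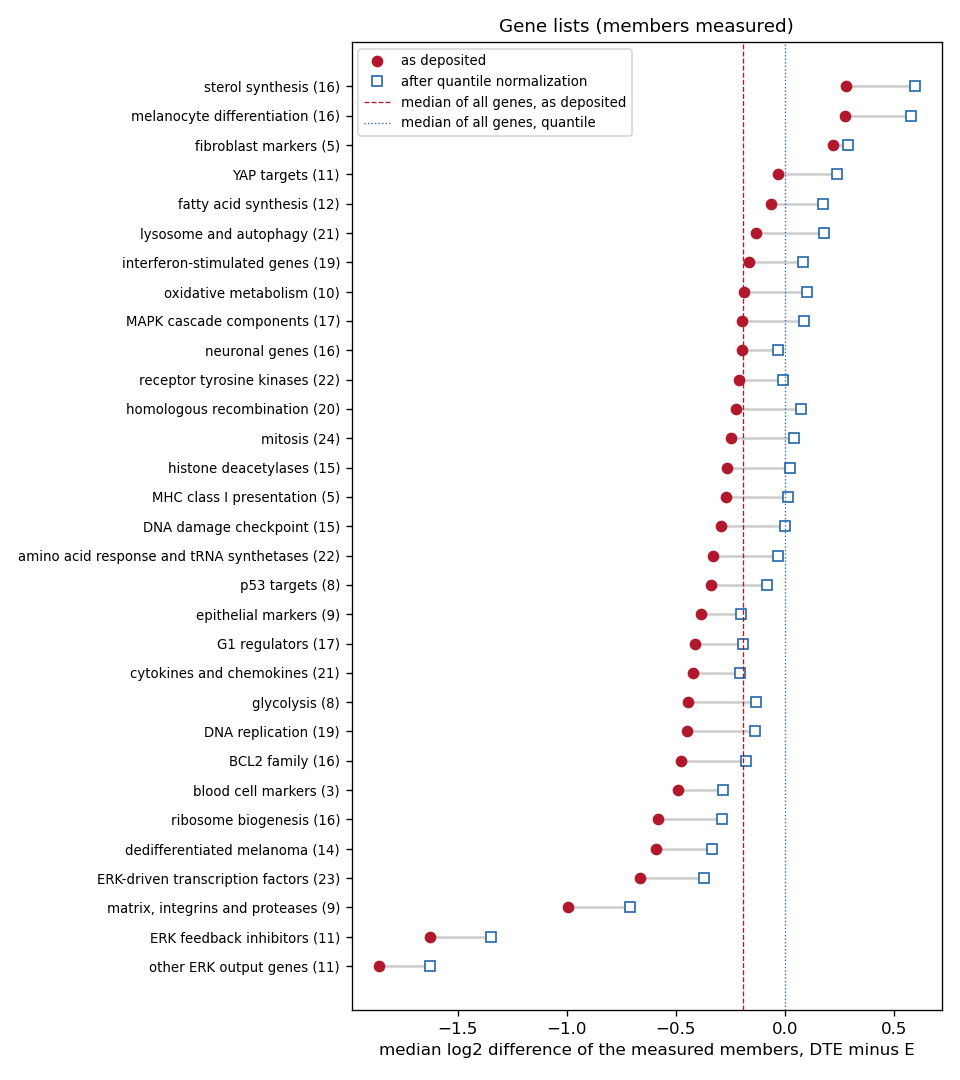
Median log2 difference, DTE minus E (horizontal axis), over the measured members of 31 gene lists (number of members in parentheses), as deposited (circles) and after quantile normalization (squares), with the medians of all 14580 genes as vertical lines. ERK output lists lie furthest left (down to -1.86), and sterol synthesis and melanocyte differentiation furthest right (0.28 and 0.27 as deposited).

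Immune, neuronal and deacetylase genes were called lower at shares near the 22.4% of all genes. The share was 26.3% of interferon-stimulated, 20% of MHC class I, 18.8% of neuronal and 26.7% of histone deacetylase genes, and their medians as deposited lay between -0.27 and -0.16. Of 19 interferon-stimulated genes 2 rose and 5 fell (median -0.16); after quantile normalization 2 rose and 3 fell (median 0.08). IFI44L (0.93) and IFIT1 (0.75), both antiviral genes, rose. RIGI, the sensor of viral RNA (-1.27 ± 0.13, SE), CD274, which encodes the checkpoint ligand PD-L1 (-1.23 ± 0.16, SE), and IRF1 (-0.82) fell on both scales, while BST2 (-0.86) and ISG15 (-0.50) were called lower only as deposited. Of 5 measured genes of MHC class I presentation 1 fell as deposited, the peptide trimming enzyme gene ERAP2 (-0.56), and none was called after quantile normalization (median -0.27 and 0.01). B2M was not called (-0.04). Of 16 neuronal genes, of interest because deacetylase inhibition can turn on such genes, 3 fell and none rose (median -0.20): STMN3 (-0.76), NCAM1 (-0.48) and SYT1 (-0.48), of which STMN3 kept its call after quantile normalization. On that scale 1 rose, SYT11 (0.45), and the median was -0.03. Among 15 histone deacetylase genes 4 fell and none rose (median -0.27). After quantile normalization 1 fell and 3 rose, SIRT2 (0.52), HDAC9 (0.47) and HDAC5 (0.43), and the median was 0.02. HDAC4, a class IIa enzyme, fell by 0.95 ± 0.12 (SE), and it kept its call after quantile normalization. HDAC1, a target of entinostat, was called lower only as deposited (-0.34), and the other targets HDAC2 (-0.28) and HDAC3 (-0.27) were not called. Refits without 1 array lost the calls of SYT1 in 3 of 12 refits (adjusted p up to 0.063, without E replicate 1) and HDAC1 in 8 of 12 refits (adjusted p up to 0.161, without E replicate 1).

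The same drug step without entinostat, DT against DMSO, shares no array with DTE against E. There 471 genes were higher (3.23%) and 3514 lower (24.1%). Of the 303 genes higher in DTE than in E, 165 were also called higher in DT (54.5% of the 303 and 35.0% of the 471), and of the 3271 lower genes 1953 were also called lower (59.7% of the 3271 and 55.6% of the 3514). Across the 14580 genes, which are not independent replicates, the differences had a Pearson r of 0.70 and a Spearman rho of 0.56. DUSP6 differed by -5.36 with entinostat and by -4.47 without it, ETV4 by -4.05 and -4.05, MITF by 1.32 and 1.36, and HMGCS1 by 1.07 and 1.16. None of these 4 was called in the test of the difference between the responses.

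**Figure D4:**
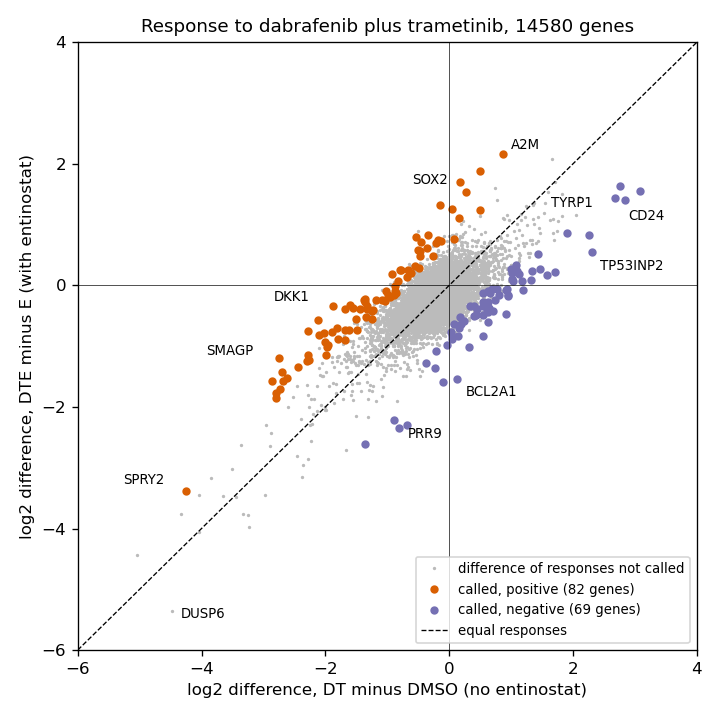
Log2 difference with entinostat (DTE minus E, vertical axis) against the difference without it (DT minus DMSO, horizontal axis), 1 point per gene. Coloured points are the 82 genes whose response was more positive with entinostat and the 69 whose response was more negative, at an adjusted p under 0.05 for the difference of responses; the dashed line marks equal responses.

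The difference of responses, DTE minus E less DT minus DMSO, was called for 82 genes with a positive value (0.562% of those tested) and 69 with a negative one (0.473%). A positive value means a smaller fall or a larger rise with entinostat present. After quantile normalization the counts were 174 and 140, and with 1 array left out they ran from 46 (without DT replicate 1) to 108 (without DTE replicate 1) and from 36 (without DMSO replicate 3) to 69. Of the 12 genes with the largest values, SMAGP, a small membrane protein, fell with and without entinostat but less with it (-1.20 and -2.74, difference 1.55 ± 0.20 (adjusted p = 0.000614)). DKK1, a secreted Wnt inhibitor, measured 8.24, 8.57 and 8.56 in E and 8.11, 8.09 and 8.19 in DTE and was not called in that comparison (-0.33, adjusted p = 0.104), whereas it differed by -1.87 between DT and DMSO. The difference was 1.54 ± 0.21 (adjusted p = 0.000976). CTLA4, a checkpoint receptor gene known from T cells, differed by -0.57 with entinostat and -2.12 without (1.55 ± 0.17 (adjusted p = 0.000283)), and SH3TC2, a gene of myelinating Schwann cells, by -0.75 and -2.28 (1.53 ± 0.21 (adjusted p = 0.0011)). PMP2 (1.70 and 0.17, difference 1.53 ± 0.24 (adjusted p = 0.00259)) and the endocytic receptor gene LRP2 (1.32 and -0.15, difference 1.48 ± 0.16 (adjusted p = 0.000196)) were called higher in DTE and had the more positive response there. Without entinostat PMP2 averaged 2.78 in DMSO and 2.95 in DT, and LRP2 2.72 and 2.57. These levels lie near or below the lower quartile of genes (2.98 in DMSO and 2.91 in DT).

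On the negative side, TP53INP2, an autophagy protein, rose by 0.56 with entinostat and by 2.30 without it (difference -1.74 ± 0.17 (adjusted p = 0.000112)). BCL2A1 differed by -1.54 with entinostat and 0.13 without it, a difference of -1.67 ± 0.20 (adjusted p = 0.000489). Its mean was 6.68 in DTE and 8.22 in E, beside 8.04 in DT and 7.92 in DMSO, so the DTE arrays stood apart from the other 9. ASPA (1.55 and 3.08, difference -1.52 ± 0.27 (adjusted p = 0.00787)) rose less with entinostat. RAP1GAP, a brake on the GTPase RAP1, was not called in DTE against E (0.22) and differed by 1.71 between DT and DMSO (difference -1.49 ± 0.19 (adjusted p = 0.000614)). TMEM156 (difference -1.62 ± 0.26 (adjusted p = 0.00335)) and PRR9 (difference -1.54 ± 0.26 (adjusted p = 0.00678)) fell further with entinostat, to means of 2.20 and 2.52 in DTE that lie below the lower quartile of genes. Without entinostat TMEM156 averaged 2.61 in DMSO and 1.93 in DT, and PRR9 3.37 and 2.56. The lower quartile of genes was 2.98 in DMSO and 2.91 in DT, and only PRR9 in DMSO lay above it. The size of both genes' responses is therefore uncertain.

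Within the lists, the pigment genes held 4 negative calls among 16 measured, against 0.473% of all genes, and a median difference of responses of -0.50 beside -0.0023 over all genes. They were BCL2A1, EDNRB, TYRP1 and PMEL. TYRP1 rose by 1.43 with entinostat and 2.68 without it (-1.24 ± 0.19 (adjusted p = 0.00309)), and PMEL by 0.34 and 1.08 (-0.74 ± 0.16 (adjusted p = 0.0345)). The endothelin receptor gene EDNRB was not called in DTE against E (0.17) and differed by 1.58 between DT and DMSO (-1.41 ± 0.18 (adjusted p = 0.000614)). The ERK output list held 3 positive calls among 11 measured, against 0.562% of all genes. They were IER3 (1.29 ± 0.16 (adjusted p = 0.0006)), PMAIP1 (1.11 ± 0.16 (adjusted p = 0.00183)) and EPHA4 (1.25 ± 0.21 (adjusted p = 0.00631)), whose falls were smaller with entinostat. The ERK brakes held 1 among 11 measured, SPRY2 (0.87 ± 0.16 (adjusted p = 0.0108)). IER3 has several probe sets, and over their mean the difference of responses was 0.58 (adjusted p = 0.105). CDK6 (0.95 ± 0.21 (adjusted p = 0.0335)) fell less with entinostat too. Leaving out 1 array ended the calls of PMEL in 9 of 12 refits (adjusted p up to 0.107, without E replicate 3) and CDK6 in 8 of 12 refits (adjusted p up to 0.0987, without DT replicate 1). SOX2 averaged 7.75 in DTE and 6.22 in E, beside 7.22 in DT and 6.95 in DMSO. Its rise in DTE over E exceeded the difference between DT and DMSO (0.27) by 1.27 ± 0.19 (adjusted p = 0.00215). A2M averaged 8.16 in DTE and 5.99 in E, beside 5.69 in DT and 4.82 in DMSO, and its difference of responses was 1.30 ± 0.19 (adjusted p = 0.00215).

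**Figure D5:**
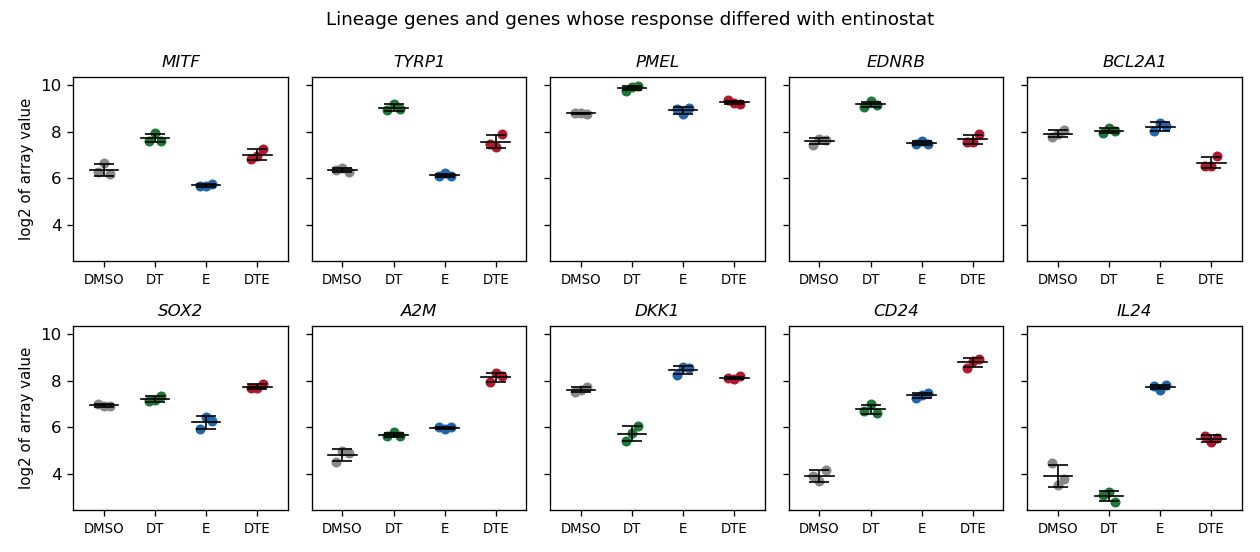
Log2 array value (vertical axis) of 10 genes in the 4 groups, 1 point per array, with the mean (long bar) and SD (capped bar) of the 3 arrays. MITF has like steps with and without entinostat, BCL2A1 is low only in DTE (6.68), and A2M and CD24 are highest in DTE (8.16 and 8.79).

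The genes most raised by entinostat alone were followed into DTE, as levels with no test, since the E arrays chose them. CD24, a surface glycoprotein, averaged 8.79 in DTE and 7.39 in E, beside 6.77 in DT and 3.93 in DMSO. IL24 averaged 5.53 in DTE and 7.73 in E, beside 3.05 in DT and 3.93 in DMSO, so that its DTE level lay between those of E and DMSO. KRTAP2-3, a hair keratin-associated gene with near-identical neighbours whose signals the array may not separate, averaged 4.18 in DTE and 6.08 in E, beside 2.39 in DT and 3.23 in DMSO, and MYOZ2, a muscle Z-disc gene, 3.97 in DTE and 5.32 in E, beside 2.63 in DT and 2.85 in DMSO; both lay between E and DMSO in DTE. The other 6 were near their E level in DTE. ANKRD1, a YAP-responsive gene, averaged 6.76 in E and 6.89 in DTE, the kinesin gene KIF5C 6.52 and 6.33, BMP6 6.80 and 6.91, the elongation factor gene EEF1A2 7.49 and 7.12, the scavenger receptor gene COLEC12 6.56 and 6.24, and CREB3L3 6.30 and 6.62. In DMSO these 6 averaged between 3.51 and 4.72.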

How the data were processed

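The deposited table of 12 arrays was analysed. Its linear intensity values were made by the authors with RMA and the Transcriptome Analysis Console, per the submitters' processing notes; versions, summarisation settings and genome build are not given in the sources used here. Array distributions differ, and ERCC spike-in RNA was added before extraction, per the labels' protocols. Probe sets were named from the platform annotation: of 29396, 14748 had 1 symbol and 14648 none. The brightest probe set stood for each of the 156 genes with several, leaving 14580 genes. Log2 values were fitted with limma 3.58.1 in R 4.3.3 (group means over 12 arrays, 8 residual degrees of freedom, eBayes, Benjamini-Hochberg); a call is an adjusted p under 0.05. The script was tested on simulated data. List medians and counts are descriptive, with no set test. Motifs and sequences come from RefSeq tables (GRCh38.p14).

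Named genes were the 14 largest rises and 14 largest falls, no more than 3 called genes of a list in each direction, the 6 largest differences of responses each way, the 10 genes most raised by entinostat, and a fixed set. Further list members are named to account for a list's count, after their values were seen, and other genes are said to be looked up. Members and lists were chosen with earlier results of these data known. The level rule used the 95th percentile of olfactory receptor genes, but only 1 was named (level 2.05) and 13653 genes passed, so the lower quartile of genes in each group (3.12 in E, 2.99 in DTE) is used to describe dim genes. Precision is limited by 3 arrays a group. Alternatives were the scaling, a trend, the replicate number as a block, dim-gene filters, an offset of 16, the probe set rule, the arrays fitted and each array left out. Same-number arrays of E and DTE had correlated deviations of 0.097, 0.040 and 0.0044, so the numbers were not taken to pair arrays. No pair of arrays of a group held identical values.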

Additional observations from a re-analysis of the deposited data

Results flagged for a closer look

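The response to dabrafenib and trametinib differed with entinostat present for the genes below, by limma's test of the difference itself at an adjusted p under 0.05 over all 14580 genes. Values are DTE minus E less DT minus DMSO on the log2 scale, with 3 arrays in each of the 4 groups.

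A positive value was found in genes that fell less, or rose more, with entinostat. It was 1.55 for SMAGP, 1.55 for CTLA4, 1.54 for DKK1, 1.53 for PMP2, 1.53 for SH3TC2 and 1.48 for LRP2, the largest of the 82. Among ERK outputs and cell cycle genes it was 1.29 for IER3, 1.25 for EPHA4, 1.11 for PMAIP1, 0.87 for SPRY2 and 0.95 for CDK6. The call of IER3 did not hold over the mean of its probe sets (0.58, adjusted p = 0.105). That of CDK6 was lost in 8 of 12 refits that left out 1 array. SOX2 and A2M, which rose in DTE, had 1.27 and 1.30. The Notch ligand gene JAG1 and the Notch target gene HEY1, looked up after their values were seen, differed by -0.77 and -1.15 with entinostat and by -1.89 and -2.28 without it, and their differences of responses were 1.11 and 1.13.

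A negative value was -1.74 for TP53INP2, -1.67 for BCL2A1, -1.62 for TMEM156, -1.54 for PRR9, -1.52 for ASPA and -1.49 for RAP1GAP, the largest of the 69. In pigment genes it was -1.41 for EDNRB, -1.24 for TYRP1 and -0.74 for PMEL. The call of PMEL was lost in 9 of 12 refits that left out 1 array. MLPH, a carrier of melanosomes looked up after its value was seen, differed by -0.83 with entinostat and 0.55 without it, a difference of -1.39. The clock output genes DBP and PER3, also looked up, were not called in DTE against E (-0.05 and -0.17) and differed by 0.94 and 0.95 between DT and DMSO, with differences of responses of -0.99 and -1.12. With 1 array left out, the call did not hold for DBP in 8 of 12 refits (adjusted p up to 0.0803, without E replicate 1).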

How the results depend on the processing

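Scaling moved the counts most. After quantile normalization 1019 genes were higher and 851 lower in DTE than in E, 85 and 128 at least 2-fold, and the difference of responses was positive for 174 and negative for 140. After median centring the counts were 978 and 1007, 74 and 150, and 160 and 107. An eBayes trend gave 129 positive differences of responses, and an offset of 16 before the log gave 17 genes at least 2-fold higher, 145 at least 2-fold lower and 122 negative differences of responses; an offset shrinks the change of dim genes by construction. With 1 array left out the genes lower ran from 2132 to 3372, the higher from 224 to 311, those at least 2-fold higher from 39 to 47 and lower from 255 to 280, the positive differences from 46 to 108 and the negative from 36 to 69. The positive count fell by over 1.5 times without DMSO replicate 2, DT replicates 1 and 3, E replicate 3 or DTE replicates 2 and 3, and the negative count without DMSO replicates 1 and 3, DT replicate 2 or E replicates 1 and 3. The medians of 11 of 31 lists changed sign after quantile normalization and those of 9 after median centring. In 3 of them the values on both sides of 0 exceeded the spread between replicates: fatty acid synthesis to 0.17 and 0.16 after quantile normalization and median centring, lysosome and autophagy to 0.18 and 0.090, and interferon-stimulated genes to 0.084 and 0.060. The cause was not tested.

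Of the 235 genes with a value in the report, 199 were called. Of all 235, 180 kept direction and side of the threshold after quantile normalization, 189 after median centring and 208 in every fit that left out 1 array, and no called gene was called in the opposite direction under these settings. CCNA2 (-0.01 as deposited, not called) was called higher after quantile normalization (0.29). With the replicate number as a block, 324 genes were higher and 3609 lower, 102 differences of responses were positive and 89 negative. The numbers were not taken to pair the arrays: 1 of 3 E arrays deviated most like the DTE array of its own number, and 2 of 3 DTE arrays most like the E array of theirs. A filter at the lower quartile of genes, chosen after seeing the data, gave 307 and 3487. Signal over background could not be set for each gene, so changes that end below the lower quartile are uncertain in size.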

Other observations

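Long non-coding RNAs were counted apart: of 1361 measured, 15 were called higher and 137 lower (median difference -0.109), beside 266 and 2985 of 11718 protein-coding genes (median -0.218). After quantile normalization 49 of the long non-coding RNAs were higher and 38 lower, beside 938 and 782 of the protein-coding genes. The groups differ in level, with a median log2 value in E of 3.08 for the long non-coding RNAs and 5.43 for the coding genes, and the difference in call rates was not tested. LINC-PINT, a p53-responsive RNA, averaged 7.36 ± 0.31 (SD, n = 3) in E and 5.62 ± 0.31 in DTE, a fall of 1.74 ± 0.26 (SE). LINC00518, a melanoma-associated RNA, averaged 5.96 ± 0.07 in E and 7.06 ± 0.20 in DTE, a rise of 1.10 ± 0.16 (SE). Both were looked up after their values were seen.

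The promoter windows were also searched on both strands for the cyclic AMP response letters TGACGTCA and for the E-box CACGTG. TGACGTCA stood in 278 of 10560 windows (2.63%) and in 8 of 192 windows of genes at least 2-fold lower in DTE (4.17%). The E-box stood in 953 of 10560 (9.02%) and in 15 of the 192 (7.81%). Over all genes called lower the shares were 2.86% for TGACGTCA and 10.7% for the E-box.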
